A study of Homo sapiens with 21 samples.

Results

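The major histocompatibility complex (MHC) is a gene-dense stretch of human chromosome 6, and its RUNX1 binding sites in Jurkat cells are described here. Its peaks were those of 14 deposited lists whose summit, the base of highest signal, lay between 28.477 and 33.448 Mb of chromosome 6 in the hg19 build, a window of 4.971 Mb. The window was divided at fixed positions in class I (3.003 Mb), class III (0.71 Mb) and class II (1.258 Mb). Of 791439 peaks on chromosomes 1 to 22 and X, 1462 lay in the window, 605 in the HA and 857 in the TY1 lists. Summits of different lists that lay close together were joined to a site, by overlap of windows of 100 bp on each side. The window held 245 of 190855 such sites.

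Chromatin immunoprecipitation and sequencing was done in Jurkat, an established line of human T-cell acute lymphoblastic leukaemia, without any treatment. The 6 mutant clones carried a RUNX1 change knocked in, R232fs (a frameshift), Y287X (a stop codon) or G365R (a changed amino acid), with 2 clones each. In these clones an HA tag marked the mutant and a TY1 tag the wild-type RUNX1 protein of the same cells. The WT group was 1 clone of parental genotype, in which both tags marked wild-type protein. Each clone gave an anti-HA and an anti-TY1 list, and the 7 control samples were not analysed here. Each clone came from a single cell, so a difference between genotypes is also one between a few clones. Every difference between tags is at the same time one between antibodies, and the single WT clone is the only measure of that.

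RUNX1 is a transcription factor of blood cells that binds DNA through its Runt domain together with its partner CBFβ, and it is needed for T-cell development. Class I of the MHC holds the genes whose products present peptides from inside the cell to cytotoxic T cells. Class II holds genes for antigen presentation to helper T cells, which are used mainly by specialised presenting cells and need their own transactivator. Class III lies between them and is one of the most gene-dense stretches of the genome, with complement and cytokine genes among others. No hg19 annotation was used here, so sites are named by position and without a gene.

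The R232fs and Y287X lists stood apart from the G365R and WT lists in features that the labels do not mention. Chromosome 1 began with a peak at base 10007 to 10043 in all 8 truncating lists, and at base 9871 to 9912 in the 6 G365R and WT lists. The highest fold enrichment of a list was 174 to 369 in the first set and 61.0 to 89.3 in the second. Genotype and set of lists therefore cannot be told apart. The lists held 30563 to 86433 peaks, and their sequencing depth is unknown.

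RUNX1 peaks were present in all 3 classes in every list, and class III was the densest. A list had 39 to 172 peaks in the window, with a median of 107.5, or 7.85 to 34.6 per Mb. Class III had a median over lists of 43.0 peaks per Mb, with 18.8 in class I and 17.5 in class II. Counted as sites, class III held 56, or 78.9 per Mb, class I 140 (46.6 per Mb) and class II 49 (39.0 per Mb). In numbers of peaks class I had the most, with a median of 51.8% of a list's window peaks, followed by class III with 28.3% and class II with 21.2%.

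Compared with the rest of the genome, the window was not unusually full. Between 42.5% and 76.8% of 598 tiles of the same length had fewer peaks than the window in the same list. The adjoining 2.4855 Mb on each side together held more peaks than the window in every list, 128 to 388. The flanks exceeded the window 2.37 to 3.44 times in the HA lists and 1.85 to 2.32 times in the TY1 lists, and these ranges did not overlap.

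Peaks were clustered within the window. Of 51 bins of 100 kb, 19 had a peak in every list and 9 had none in any list. The fullest bin was at 31.5 to 31.6 Mb, at the class I end of class III, with a mean of 7.21 peaks per list (2 to 13). The next were at the far end of class II, at 33.3 to 33.4 Mb with 6.71 and at 33.2 to 33.3 Mb with 5.79. The bins at 30.6 to 30.7 Mb in class I and at 31.7 to 31.8 Mb in class III each had 5.07. These 5 bins had a peak in all 14 lists.

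Long stretches had no summit in any list. The longest ran over 393 kb, from 29.20 to 29.60 Mb in class I, and was separated by a single site from another of 254 kb. Class II had the other 3 of the 5 longest, of 298 kb (32.16 to 32.46 Mb, starting in class III), 185 kb (32.59 to 32.78 Mb) and 200.1 kb (32.97 to 33.17 Mb). The 49 class II sites therefore fell into 3 groups. There were 4 between 32.46 and 32.59 Mb, 15 between 32.78 and 32.97 Mb and 30 from 33.17 Mb to the end of the window. All 4 class II sites of every list were in the last group. Over all 244 gaps between neighbouring sites, these long ones included, the median was 6511 bp and 50 were under 1 kb.

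**Figure D1:**
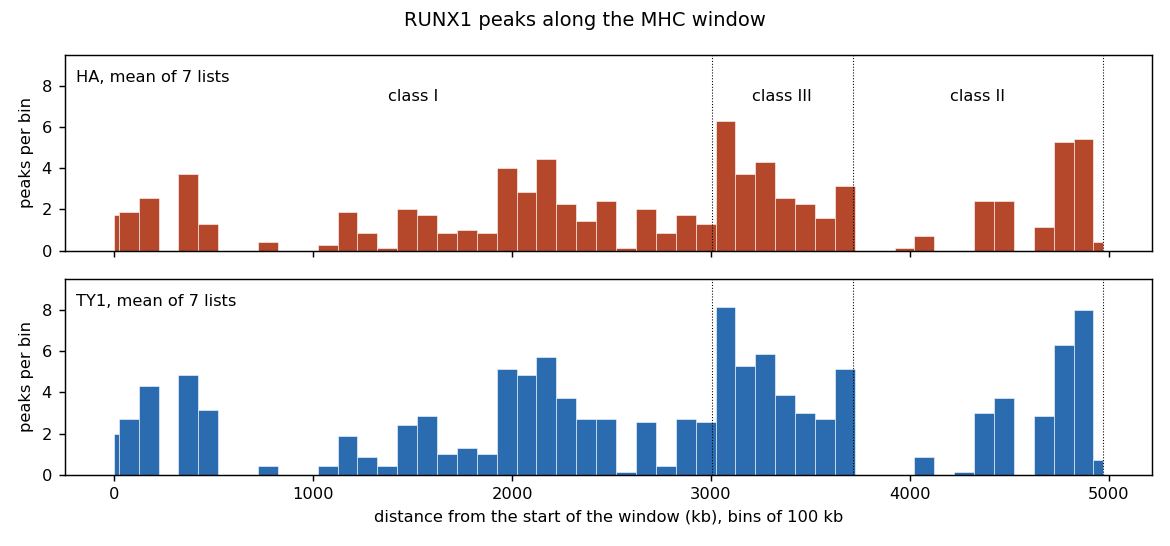
Mean number of RUNX1 peaks per list in bins of 100 kb along the MHC window, for the 7 HA lists (top) and the 7 TY1 lists (bottom), against distance from the window's start in kb. Both tags are high and low in much the same bins, with the fullest bin at the start of class III (mean 6.29 in HA and 8.14 in TY1 lists).

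The reference that the authors used carried the MHC more than once, and the lists had peaks on the extra copies. There were 6653 peaks on 7 alternate chromosome 6 haplotype sequences, from 506 (apd) to 1256 (cox) on each. A list had 173 to 805 of them, or 4.13 to 4.83 for each peak of the chromosome 6 window. Their highest fold was 15.5 to 45.7 in a list, close to the 13.1 to 49.8 in the window itself. How reads that match several copies were assigned is not given in the sources used here, and its part in the densities, gaps and fold values above was not tested.

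**Figure D2:**
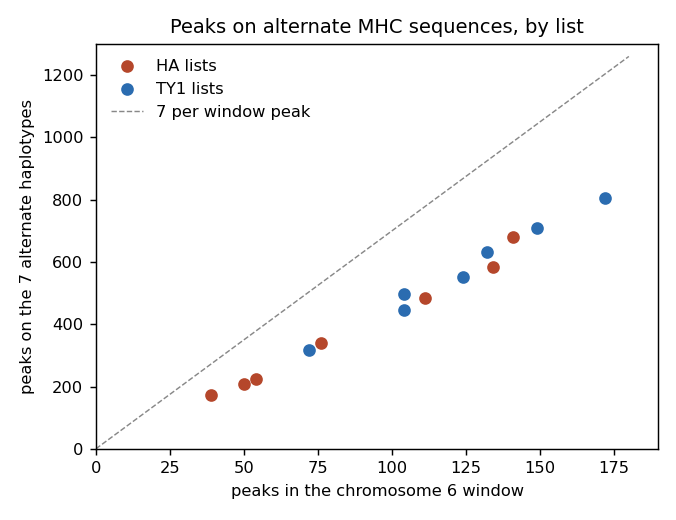
Peaks on the 7 alternate haplotype sequences (y axis) against peaks in the chromosome 6 window (x axis), 1 point per list, with a dashed line at 7 per window peak. All 14 lists lie below the line, at 4.13 to 4.83 per window peak, with HA and TY1 lists on 1 trend.

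A smaller share of HA peaks than of TY1 peaks lay in the MHC, in each of the 7 clones. In the first R232fs clone 0.143% of the HA and 0.179% of the TY1 peaks were in the window, and 0.163% and 0.252% in the second clone. The Y287X clones had 0.146% (HA) and 0.209% (TY1), then 0.198% and 0.211%. The G365R clones had 0.176% and 0.230%, then 0.128% and 0.168%, and the WT clone 0.133% and 0.209%. The ranges over lists overlapped, 0.128% to 0.198% for HA and 0.168% to 0.252% for TY1, while within each clone HA was the lower. By group, the R232fs shares were 0.153% ± 0.0143 under HA and 0.216% ± 0.0512 under TY1, the Y287X shares 0.172% ± 0.0366 and 0.210% ± 0.00130, and the G365R shares 0.152% ± 0.0345 and 0.199% ± 0.0437 (SD, n = 2 clones each).

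Dividing the HA by the TY1 share gave 0.796 and 0.647 for the R232fs clones, 0.701 and 0.940 for the Y287X clones, and 0.767 and 0.758 for the G365R clones. Their geometric mean was 0.763 (log2 -0.39, SD between clones 0.18, n = 6), lower in 6 of 6 mutant clones. An exact permutation test of the tags within genotypes gave p = 0.0185 (two-sided, 216 arrangements, smallest possible p 0.00926), and with the tags paired by clone p = 0.0313. Without any 1 of the 4 truncating clones the unpaired exact permutation p was 0.0556, at ratios of 0.732 to 0.788. With lists cut to equal length the ratio was 0.784, and the exact permutation p was 0.0833 without and 0.0313 with pairing. For the WT clone, with wild-type protein under either tag, the ratio was 0.640 in the lists as deposited, below that of every mutant clone. With lists cut to equal length it was 0.733.

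The 4 truncating clones had a mean ratio of 0.763 (exact permutation p = 0.0556, the smallest possible) and the 2 G365R clones one of 0.763 (p = 0.667, exact permutation, smallest possible 0.333). Over both tags together the share was 1.09 times as high in the 4 truncating as in the 3 other clones (exact permutation over 35 splits, p = 0.514), a comparison whose smallest possible p is 0.0571.

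Few other stretches of the genome showed so low a ratio. Over 507 tiles of the window's length with at least 10 peaks in every list, the median ratio was 0.997 and the range 0.756 to 1.40. The window's 0.763 was lower than the ratio of 506 of them. HA had the lower share in all 6 mutant clones in 17 tiles, or 3.35%. In the WT clone 7 tiles had a lower ratio than the window's 0.640. With lists of equal length the window's WT ratio was 0.733, and 31 of 483 tiles were lower than that.

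**Figure D3:**
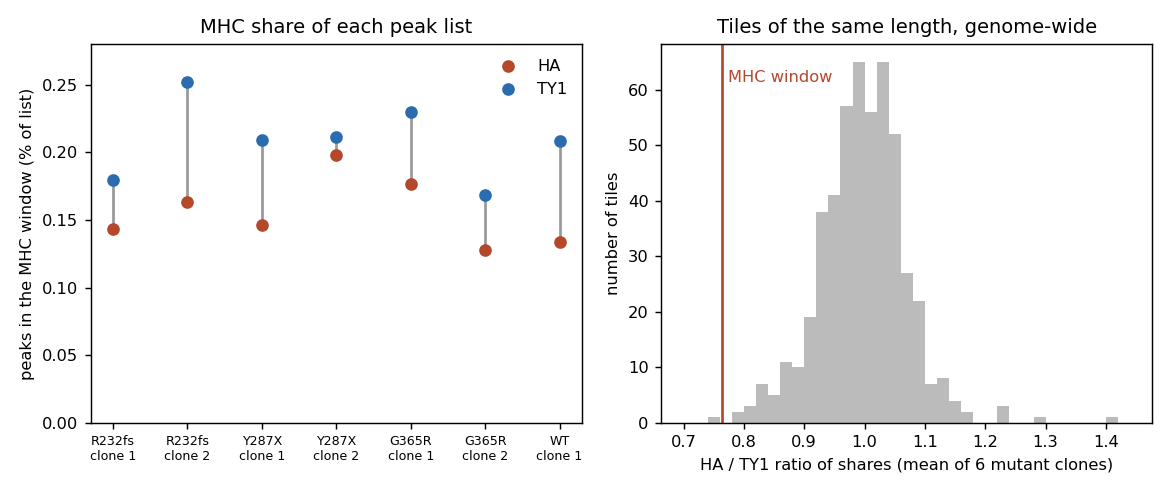
Left, percent of each list's peaks in the MHC window by clone, HA in red and TY1 in blue, joined within a clone. Right, histogram of the HA to TY1 ratio of shares over 507 tiles of the same length, with the window's 0.763 as a line at the low edge.

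The lower HA share was spread over the classes. The mean ratio of the 6 mutant clones was 0.753 in class I, lower in 6 of 6 clones (exact permutation p = 0.0463, Benjamini-Hochberg adjusted over the 3 classes 0.0694). It was 0.748 in class III, lower in 6 of 6 (p = 0.0185, adjusted 0.0556, exact permutation), and 0.797 in class II, lower in 5 of 6 (p = 0.148, adjusted 0.148, exact permutation). The WT clone had 0.721, 0.665 and 0.411. Without pairing, no class passed 0.05 after adjustment. With the tags paired by clone, class I and class III did (exact permutation p = 0.0313 each, the smallest possible, adjusted 0.0469), and class II did not (exact permutation p = 0.0938, adjusted 0.0938). Among peaks of fold 5 or more the ratio was 0.964 in class I, lower in 3 of 6 clones (exact permutation p = 0.722, paired 0.438). It was 0.528 in class III (exact permutation p = 0.0278, paired 0.0625) and 0.506 in class II (exact permutation p = 0.0833, paired 0.0625), and the difference between classes was not tested.

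Window peaks ranked somewhat above the middle of their lists by fold enrichment, and the order of the classes depended on the measure ranked. The median percentile of the window's peaks in their own list was 46.0 to 62.8 (median over lists 54.4), and that of the flanks 34.0 to 47.2 (median 43.8). Class I had a median over lists of 60.3 (51.7 to 72.6), class III 54.2 (40.5 to 65.3) and class II 41.4 (20.0 to 63.6). Ranked by −log10 p in place of fold, the window's median was 49.2, with 45.9 in class I, 54.2 in class III and 47.8 in class II. Class II was thus lowest by fold and class I by −log10 p. Peaks of fold 5 or more made up 25.0% to 43.6% of the window's HA and 32.7% to 45.8% of its TY1 peaks, against 21.5% to 34.9% and 30.0% to 46.7% of whole lists. These ranks are a description of the members and carry no test.

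MHC sites were found in more lists than sites elsewhere. A site was in a median of 5 lists, and over the genome in 2. In the window 18 of 245 sites (7.35%) were in all 14 lists, beside 5.92% of all sites, and 49 (20%) were in a single list, beside 42.3%. At least 10 lists had 61 sites (24.9%, beside 16.0% of all). Class III sites had a median of 7 lists, class II sites 5 and class I sites 4. Of the 18 sites of every list, 10 were in class I, 4 in class III and 4 in class II.

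By tag, 161 of 245 sites (65.7%) were in more TY1 than HA lists and 35 (14.3%) in more HA than TY1 lists. Over all sites these shares were 40.5% and 39.3%. Tag-only sites are those that both clones of a genotype had under 1 tag and neither had under the other. In G365R the TY1 lists were the longer ones, at 57378 and 61793 peaks against 30609 and 30563 under HA. There 35 sites (14.3%) were TY1-only, beside 7.85% of all sites, and 1 was HA-only (background 0.24%). In Y287X, 8 were TY1-only (background 1.2%) and 1 HA-only (0.679%). In R232fs, where the HA lists were the longer ones, 3 were HA-only (background 3.98%) and 1 TY1-only (0.27%). With lists of equal length the window held 123 sites. Of these 4 were TY1-only (3.92% of all sites under that setting) and 2 HA-only (2.42%) in G365R, 8 TY1-only (1.2%) and 0 HA-only (1.12%) in Y287X, and 5 TY1-only (1.07%) and 0 HA-only (1.63%) in R232fs.

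Where an HA peak was called, a TY1 summit of the same clone was usually close. In the WT clone 84.0% of HA window peaks had a TY1 summit within 100 bp, beside 73.9% over the genome. In G365R it was 75.9% and 84.6% (76.5% and 74.9% over the genome), and in Y287X 77.6% and 70.9% (62.0% and 67.5%). The R232fs clones had 51.4% and 72.3% (38.2% and 51.0%). In 6 of the 7 clones the share was higher in the window than over the genome, with the first G365R clone as the exception.

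Of the sites found in every list, the strongest were in class I near its start and in class II near its end. Fold values belong to the authors' call of each list, so tests between lists below use ranks. At chr6:28574715-28575044 in class I, the fold was 16.7 and 18.2 in the R232fs, 19.1 and 29.3 in the Y287X, 8.23 and 11.8 in the G365R and 5.27 in the WT HA lists. It was 24.3 and 41.6 in the R232fs, 28.5 and 49.8 in the Y287X, 35.5 and 25.1 in the G365R and 21.2 in the WT TY1 lists. In every clone TY1 was above HA. The G365R and WT HA lists, at 5.27 to 11.8, were below all other lists. The site ranked at a mean of 95.6% of its lists.

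The highest mean rank of these sites, 97.5%, was at chr6:33313018-33313289 in class II. There the fold was 21.6 and 27.3 in the R232fs, 20.3 and 28.7 in the Y287X, 13.1 and 13.7 in the G365R and 16.3 in the WT HA lists. It was 17.2 and 20.95 in the R232fs, 19.2 and 33.5 in the Y287X, 26.7 and 21.7 in the G365R and 27.9 in the WT TY1 lists. In R232fs the HA lists were above the TY1 list of their own clone, and in G365R and WT they were below it. No list was under a fold of 13.1 at this site.

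A second class I site of rank 95.2%, at chr6:29676465-29676833, varied less. Its fold was 8.54 and 13.6 in the R232fs, 12.02 and 16.6 in the Y287X, 10.8 and 11.6 in the G365R and 14.1 in the WT HA lists. It was 17.8 and 15.9 in the R232fs, 14.2 and 20.99 in the Y287X, 14.3 and 20.1 in the G365R and 16.8 in the WT TY1 lists. The ranges of the tags overlapped, as did those of the genotypes. The third in class I, at chr6:30431482-30431721, had a rank of 91.3% and a fold of 6.66 to 15.6 in the HA and 9.11 to 16.3 in the TY1 lists.

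In class III no site of every list ranked as high. The highest was at chr6:31705767-31706066, with a rank of 89.0%. The fold was 8.34 and 9.17 in the R232fs, 7.76 and 10.4 in the Y287X, 7.90 and 6.22 in the G365R and 5.73 in the WT HA lists. It was 10.7 and 10.1 in the R232fs, 9.54 and 14.2 in the Y287X, 10.97 and 10.4 in the G365R and 14.4 in the WT TY1 lists. By rank the tags did not order the same way in all clones, with HA above TY1 in 3 of the 7 (normal scores 0.24, 0.02 and 0.17 in the second R232fs, second Y287X and first G365R clone). The next were at chr6:32160565-32160847 (rank 76.1%, fold 3.49 to 7.28 in HA and 6.57 to 13.5 in TY1 lists) and at chr6:31972738-31972979 (rank 67.5%). In class II the sites after the strongest were at chr6:33267012-33267288 (rank 72.7%) and chr6:33239323-33239664 (rank 68.0%). At the latter the second G365R clone had the lowest TY1 fold, 3.58, and the other TY1 lists had 5.03 to 13.9.

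**Figure D4:**
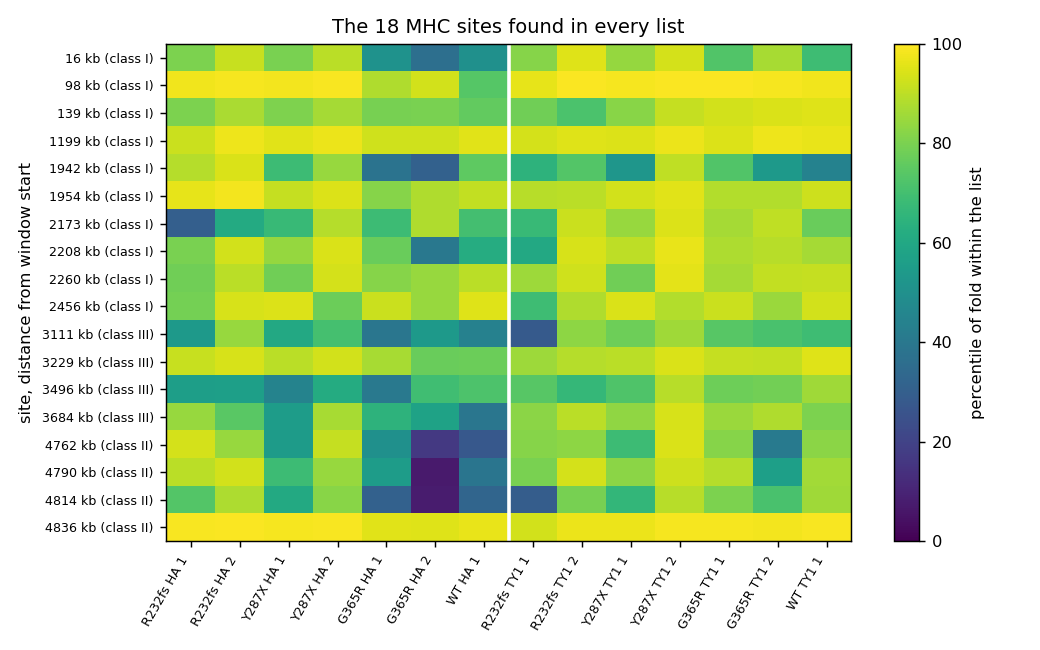
Percentile of fold within its list (colour) for the 18 sites of every list, in order of distance from the window's start in kb (rows), for the 7 HA lists (left of the white line) and the 7 TY1 lists (right). The rows at 98, 1199 and 4836 kb are high in nearly all lists, and the class II rows at 4762 to 4814 kb are low in the second G365R HA list.

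Some sites were present in a set of lists as a whole. At chr6:29203815-29204080 in class I, between the empty stretches of 254 and 393 kb, all 6 G365R and WT lists had a strong peak and none of the 8 R232fs and Y287X lists had one. The fold was 10.2 and 14.2 in the G365R and 11.6 in the WT HA lists, and 16.2 and 14.8 and 17.2 in the TY1 lists. In the 8 other lists the nearest summit was 253.9 to 254.0 kb away, and no whole peak overlapped the site. It was the only site of this pattern in the window, beside 0.252% of all sites, and both tags had it in every clone. Whether it goes with the genotype, the clones or the 2 sets of lists cannot be told apart. No site was in all R232fs and Y287X lists and in no other (0.176% of all sites).

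The only site held by the 4 truncating HA lists and no other (0.0466% of all sites) was at chr6:30029806-30030094 in class I. Its fold was 3.66 and 3.79 in R232fs and 3.71 and 4.89 in Y287X. These were low values, and the second clone of R232fs and of Y287X had a whole TY1 peak that overlapped the site, with its summit elsewhere. The G365R HA-only site at chr6:33312597-33312802 (fold 3.69 and 4.98) lay beside the strongest class II site. All 12 other lists had a whole peak there, with a summit 418 bp or more away, so it was a second summit within a stretch bound in every list.

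The R232fs TY1-only site was at chr6:28490989-28491264, at the start of class I. The R232fs TY1 lists had a fold of 8.10 and 7.06 there, all 10 lists of the other genotypes had 5.08 to 11.9, and the 2 R232fs HA lists had no overlapping peak, with the nearest summit 2.478 kb away. The strongest R232fs HA-only site was at chr6:28651891-28652185 (fold 4.68 and 4.39), which the WT TY1 list also had (3.55). The strongest Y287X TY1-only sites were at chr6:28650984-28651223 (6.32 and 3.82) and chr6:28911344-28911621, which 6 of the 7 TY1 lists and no HA list had, at a fold of 3.09 to 5.09. By median fold over all lists that had them, the first G365R TY1-only sites were at chr6:29981171-29981392 (5.88 and 2.95 in G365R TY1) and chr6:30646807-30647060 (4.17 and 3.59). Other genotypes carried that median, with up to 13.96 at the former in an R232fs HA list. In the G365R TY1 lists themselves chr6:28696945-28697224 (6.11 and 5.42) and chr6:28833243-28833771 (4.78 and 6.50), chosen after their values were seen, had the higher fold.

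Fold was then compared by rank at the 11291 sites of every list, of which 18 were in the MHC, as normal scores (ranks within a list turned into standard deviations). Without a term for the clone, limma with Benjamini-Hochberg adjustment called no site anywhere for HA minus TY1, in R232fs, Y287X, G365R, their mean or between truncating and G365R clones (0% in each). Unadjusted, 4, 0, 2, 4 and 4 of the 18 had a limma p under 0.05, beside 1368, 463, 590, 1120 and 1177 of all 11291. With the 2 lists of a clone paired, limma called 1 higher and 5 lower in R232fs (10.4% and 11.3% of all sites). It called none in Y287X (0.815%), where 5 of the 18 and 2460 of all 11291 had an unadjusted p under 0.05. In G365R it called 2 lower (2.48% higher and 1.6% lower over all). For the mean of the 3 genotypes it was 1 higher and 5 lower (7.31% and 8%). HA was lower at 9 of the 18 sites in R232fs, 14 in Y287X and 13 in G365R, beside 49.5%, 50.01% and 50.6% of all sites.

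At chr6:30650335-30650587 in class I, RUNX1 ranked lower under HA than under TY1 in R232fs. The fold was 2.98 and 3.86 in the R232fs, 4.39 and 7.92 in the Y287X, 5.07 and 8.86 in the G365R and 4.96 in the WT HA lists. It was 6.49 and 12.01 in the R232fs, 7.66 and 14.8 in the Y287X, 8.63 and 10.01 in the G365R and 6.04 in the WT TY1 lists. The 2 R232fs HA lists were the lowest of all, and their percentiles of 30.4 and 61.0 compare with 67.5 and 91.9 under TY1. In the paired fit the R232fs difference was -1.53 ± 0.17 (SE; limma, adjusted p = 0.00525). The difference was -1.34 and -1.73 in the R232fs clones, -0.53 and -0.41 in Y287X, -0.13 and 0.27 in G365R and 0.14 in WT. Truncating minus G365R clones differed by -1.07 ± 0.21 (limma, adjusted p = 0.0155) in this measure, where 8.56% of all sites were called higher and 8.53% lower.

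The HA lists alone, whose values also enter the differences above, gave the same site. Of the 18, it was the only one called between truncating and G365R HA lists, at -1.31 ± 0.29 lower (limma, adjusted p = 0.0245, beside 5.66% of all sites higher and 3.87% lower). No window site was called between the TY1 lists (4.57% of all sites, lowest adjusted p in the window 0.052 by limma). Here 2 of the 18 had an unadjusted limma p under 0.05, beside 2829 of all 11291. Both comparisons are also between the 2 sets of lists. With either Y287X or either G365R clone left out, the window had 0 HA calls, and without the first or second R232fs clone 3 and 2. Over sites of at least 10 lists this difference was -0.81 (limma, adjusted p = 0.078). The 3 calls made there among 61 window sites were of other sites, all higher. The share of all sites called in that setting is not given here.

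The strongest class II site, at chr6:33313018-33313289, went the other way. In the paired fit HA was 0.61 ± 0.11 higher in R232fs (limma, adjusted p = 0.0093). It was higher in all 4 truncating clones, by 0.22 to 0.67, and lower in both G365R clones, at -0.29 and -0.15, and in the WT clone, at -0.37. The difference between truncating and G365R clones was 0.67 ± 0.13 (limma, adjusted p = 0.0145). The neighbouring site at chr6:33290594-33290916 also differed between truncating and G365R clones, by 1.02 ± 0.23 (limma, adjusted p = 0.0217). HA minus TY1 was 0.59 and 0.29 there in the R232fs and 0.10 and -0.18 in the Y287X clones, so 1 of the 4 truncating clones was below 0. HA was lower in G365R, at -0.82 ± 0.19 (limma, adjusted p = 0.0496), and in the WT clone, at -0.80. With either G365R clone left out, no site of the window was called between truncating and G365R clones, here or at the class I site above. Over sites of at least 10 lists the paired fit called 7 higher and 0 lower of 61 window sites. In that setting the share of all sites called is not given here. The class I site was at -0.69 there (limma, adjusted p = 0.0683).

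The strongest class I site, at chr6:28574715-28575044, was lower under HA in G365R (-0.88 ± 0.18, limma, adjusted p = 0.0388). In WT cells the same difference was -1.30. The other 4 sites called in R232fs were lower under HA, with differences of -0.67 ± 0.15 at chr6:30737110-30737373, -0.80 ± 0.20 at chr6:32160565-32160847, -0.63 ± 0.19 at chr6:28493500-28493764 and -0.68 ± 0.21 at chr6:31972738-31972979 (limma, adjusted p = 0.0202, 0.0269, 0.0489 and 0.04998). For the mean of the 3 genotypes the lower ones were at chr6:30650335-30650587, chr6:32160565-32160847, chr6:33267012-33267288, chr6:28574715-28575044 and chr6:31972738-31972979, at -0.64, -0.56, -0.40, -0.45 and -0.47 (limma, adjusted p = 0.00999, 0.0212, 0.0236, 0.0273 and 0.0375). The higher one was the strongest class II site, at 0.23 (limma, adjusted p = 0.0395). All these calls of HA minus TY1 rest on the pairing of tags by clone. Over 20 settings with and without pairing, the R232fs call at chr6:31972738-31972979 was made in 1 and that at chr6:28493500-28493764 in 4. Those at chr6:30737110-30737373 and chr6:32160565-32160847 were made in 8 and 7. With summit windows of 250 bp neither G365R call was made. Without the second R232fs clone 1 call was left in R232fs, and G365R had 0 calls without any 1 of the Y287X or G365R clones and 1 with either R232fs clone left out. For the mean there were 0 calls without the first G365R clone, 2 without the second, 1 and 2 without the first or second Y287X clone, and 3 without the second R232fs clone.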

How the data were processed

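RUNX1 peaks of 14 HA or TY1 libraries were used, and the 7 control samples were not analysed here. The submitters' processing notes name hg19 as the build and MACS2 2.2.7.1, Bowtie2 2.2.9 and CASAVA 1.8 as tools. Caller settings, control input and the handling of reads with several matches are not given in the sources at hand. The authors deposited 1 peak table per library, not pooled, holding for each peak a score, the enrichment as a linear ratio (fold), p-value and q-value as −log10, and a summit distance. The fold and p-values are the authors' own. The deposited lists have no read counts, so depth is unknown and no counting interval was possible. The score was not used.

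Window peaks were counted by summit, as a share of all peaks on the autosomes and X, with pandas 2.3.3, numpy 2.4.6 and scipy 1.17.1 (Python 3.11.15). Windows of 100 bp on each side of every summit were merged on 1 bp of overlap, and a list had a site when a summit fell there. Where a list had several summits the highest fold was taken. Shares were compared by exact permutation. Fold ranks at sites of all lists were compared with limma 3.58.1 (R 4.3.3, trended variance, threshold 0.05 after Benjamini-Hochberg adjustment), tested on simulated data. HA and TY1 lists of 1 replicate number come from 1 clone, per the clone names in the file headers, and their deviations correlated (R232fs r = 0.792, Y287X r = 0.702, G365R r = 0.503), so fits with a clone term stand beside those without. The p-values measure the spread between clones, not between repeat experiments.

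Sites were named by rule: the 3 highest sites of every list per class, the 2 strongest tag-only sites per genotype and tag, up to 3 sites of each presence pattern, up to 5 called sites per comparison, and the 5 fullest bins. The members, lists and tests were chosen with earlier results of these data known. Alternatives were another summit window, whole peaks, equal list lengths, thresholds on fold and −log10 q, ranks of −log10 p, sites of at least 10 lists, a clone term, haplotype peaks added, and each clone left out. No sequence or annotation of hg19 was used.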

Additional observations from a re-analysis of the deposited data

Results flagged for a closer look

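The difference between HA and TY1 ranks was itself different between truncating and G365R clones at 3 of the 18 sites of every list, in the limma fit with clones paired. The values were -1.07 at chr6:30650335-30650587, 1.02 at chr6:33290594-33290916 and 0.67 at chr6:33313018-33313289, as normal scores of truncating minus G365R. At the last of these the 4 truncating clones were all above 0 and both G365R clones below it. Over all sites of every list 8.56% were called higher and 8.53% lower in this comparison, beside 2 and 1 of the 18. The truncating and G365R lists also belong to the 2 sets of lists described above, so genotype and set cannot be told apart.

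The lists held 6653 peaks on 7 alternate chromosome 6 haplotype sequences, which lie outside the window and enter only the alternative with haplotype peaks added.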

How the results depend on the processing

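The lower HA share of the window kept its direction in every alternative tried. The paired test (replicate block) gave p = 0.0313 by exact permutation, and with haplotype peaks added the ratio was 0.740 (exact permutation p = 0.00926). The ratio lost p under 0.05 with a fold of 5 or more (0.767), a −log10 q of 10 or more (0.793) and lists of equal length (0.784). With the replicate block the first and the last of these had an exact permutation p of 0.0313, while −log10 q was not run with it. Without 1 clone it ran from 0.732 to 0.788, and without any R232fs or Y287X clone the exact permutation p was 0.0556. Class I was weaker at fold 5 or more (0.964, also with the replicate block), at −log10 q of 10 or more (0.879) and with equal lengths (0.890, where the replicate block gave an exact permutation p of 0.0313). It ran from 0.715 to 0.784 without 1 clone, with an unpaired exact permutation p of 0.0556 to 0.139. Class III ran from 0.723 to 0.773 without 1 clone, and without any R232fs or Y287X clone its unpaired exact permutation p was 0.0556. At fold 5 or more with the replicate block it was 0.528 with an exact permutation p of 0.0625. Class II ran from 0.749 to 0.844 without 1 clone, passing 0.05 only without the first G365R clone (0.749). By ranks of −log10 p the window's median percentile was 49.2.

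Counts of sites moved with the rule for a site. Except for the tag-only counts at equal lengths, given above, the share over all sites under these alternatives is not given here. With 250 bp windows G365R HA-only and truncating HA-only sites were 0. With whole peaks R232fs HA-only sites were 1, and Y287X HA-only, G365R HA-only and truncating HA-only sites were 0. With equal lengths R232fs had 0 HA-only and 5 TY1-only sites, Y287X 0 HA-only, G365R 2 HA-only and 4 TY1-only, truncating HA-only sites were 0, and 11 sites were in every list. At −log10 q of 10 or more R232fs had 1 HA-only and 2 TY1-only, Y287X 0 HA-only and 5 TY1-only, G365R 0 HA-only and 23 TY1-only, truncating HA-only sites were 0, and 9 were in every list. With 1 of its 2 clones left out, a genotype had only 1 clone to meet the tag-only rule. R232fs HA-only sites were then 22 to 46 and TY1-only 7 to 30, Y287X 9 to 12 and 37 to 50, G365R 2 to 4 and 67 to 82. Without 1 clone, sites of R232fs and Y287X lists only were 0 to 2, and of G365R and WT lists only 1 to 2.

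Limma calls of HA minus TY1 among the window's sites were made only with the pairing. With the replicate block they were 6 in R232fs, 2 in G365R, 6 for the mean and 3 for truncating minus G365R of HA minus TY1. With ranks of −log10 p and the block they were 4, 4, 4 and 8, and with 250 bp windows and the block 4, 0, 6 and 3. With sites of at least 10 lists and the block they were 8 (1 higher, 7 lower), 11 (all lower), 15 (all lower) and 7 (all higher). These were calls among 61 window sites, against 18 in the settings before, and the share over all sites is not given here. In this setting the higher call at the strongest class II site was lost for the mean, and the lower class I call for truncating minus G365R. Paired fits without 1 clone gave 1 to 5 in R232fs, 0 to 2 in G365R, 0 to 6 for the mean and 0 to 4 for truncating minus G365R. For truncating minus G365R HA lists, where 1 site was lower without pairing, there were 6 by −log10 p (1 higher and 5 lower, 5 in all with the block), 3 with sites of at least 10 lists (all higher, 2 with the block, also higher) and 0 to 3 without 1 clone (0 to 2 with the block). For TY1 lists there were 3 by −log10 p (2 with the block) and 0 to 1 without 1 clone. Apart from the paired fit by fold rank, whose shares are given above, the share over all sites is not given here for these alternatives. The causes were not tested.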
